A study of Macaca fascicularis with 6 samples.

Results

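The genes described here are the type 2 cytokines IL4, IL5, IL13 and IL9 and receptor chains for IL-4, IL-5 and IL-13. The receptor genes are IL4R, IL13RA1, IL13RA2, IL5RA and CSF2RB. All of these genes were selected by their gene symbol. Each symbol belonged to 1 row of the count tables, so that the set holds 9 of 28623 genes, of which 21095 carry a symbol. The study profiled lung tissue from the large airways of male cynomolgus monkeys (Macaca fascicularis) by droplet single-cell RNA sequencing, with 1 library per monkey. The control group held 3 monkeys that received saline (libraries control 1, 2 and 3). The asthma group held 3 monkeys that were sensitized under the skin to Ascaris suum antigen, a roundworm extract, with adjuvant and then challenged with the antigen through the nose (asthma 8, 10 and 11). All animals were 3 to 5 years old, and lungs were taken after the last challenge. The model covers 1 antigen, 1 sex and 1 time of collection.

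IL-4, IL-5 and IL-13 are made mainly by T helper 2 cells, group 2 innate lymphoid cells, mast cells, basophils and eosinophils, and are best known in the airway for IgE class switching, eosinophil survival, mucus production and alternative activation of macrophages. IL-4 binds IL4R, which pairs either with the common gamma chain on lymphocytes and myeloid cells or with IL13RA1 on epithelial, stromal and myeloid cells. The second pair also binds IL-13. IL13RA2 binds IL-13 tightly and is best known as a decoy. IL5RA is the ligand-binding chain for IL-5, and CSF2RB is the signalling chain shared by the receptors for IL-5, IL-3 and GM-CSF. IL4, IL5 and IL13 neighbour each other on chromosome 6 in the T2T assembly of the RefSeq annotation, in the order IL5, RAD50, IL13, IL4, while IL9 lies elsewhere on the same chromosome and the receptor genes lie on chromosomes 20 (IL4R), X (IL13RA1 and IL13RA2), 2 (IL5RA) and 10 (CSF2RB).

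After quality control 24235 cells remained, 11441 in the control group and 12794 in the asthma group, out of 35133 deposited barcodes. Total unique molecular identifiers (UMIs, 1 per captured transcript) of these cells, over which levels were computed, ran from 24593874 in control 2 to 34526867 in control 1, against 29014556 in asthma 11 to 41489879 in asthma 10 over all deposited barcodes. The median cell held from 3835 UMIs in asthma 10 to 5048.5 in control 2. The libraries shared 137 barcode sequences, 75 of them among the cells kept. Cells fell into 23 clusters and 121 sub-clusters, which were named from marker genes that excluded the 9 genes. No cell annotation by the authors was used, so each name carries the suffix "-like", and 32 sub-clusters with 3355 cells (13.8%) stayed unnamed. Levels are UMIs of a gene per 1000000 UMIs of a library or cell type (CPM). Values from single monkeys measure the spread between animals, and with 3 monkeys per group the exact permutation test cannot go below p = 0.1. Intervals on single counts and shares cover counting error only. In sums over all cells, fewer cells of a type and less RNA per cell cannot be told apart.

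The cytokine transcripts were scarce in both groups, and over all cells the levels of IL4, IL13 and IL5 overlapped between the groups. IL4 reached 107 UMIs in 72 cells, IL13 86 UMIs in 42 cells and IL5 52 UMIs in 51 cells. IL9 had no UMI in any of the 24235 cells, which allows a share of cells with a UMI of up to 0.0124%, nor in any of the 35133 barcodes. The receptor chains IL4R, IL13RA1 and CSF2RB were read far more often, with 5794, 18239 and 8465 UMIs, while IL13RA2 had 251 and IL5RA 17.

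For IL4 the level over all cells was 0.492, 0.447 and 0.983 CPM in control 1, 2 and 3 and 1.19, 0.216 and 0.354 CPM in asthma 8, 10 and 11. The groups overlapped, with the highest and the lowest value both in the asthma group (two-sided exact permutation test, p = 0.8, n = 3 per group). For IL13 the values were 0.840, 0.203 and 0.0728 CPM in the control group and 1.26, 0.0927 and 0.354 CPM in the asthma group, again overlapping (exact permutation p = 0.6). In each group a single monkey, control 1 and asthma 8, carried most IL13 UMIs, 29 of 36 and 38 of 50. For IL5 the values were 0.463, 0.163 and 0.765 CPM in control 1, 2 and 3 and 0.199, 0.124 and 0.0394 CPM in asthma 8, 10 and 11. The control mean of 0.464 CPM was above the asthma mean of 0.121 CPM, with control 2 below asthma 8 (exact permutation p = 0.2). When each cell was thinned to 1000 UMIs, the share of cells with an IL5 UMI was 0.0443% ± 0.0303 vs. 0.00921% ± 0.00589 (SD, n = 3). All 3 controls then lay above all 3 asthma monkeys (exact permutation p = 0.1, the smallest this design allows), with 0.0138% in control 2 next to 0.0135% in asthma 8. Thinned values this low stand near the level of 1 UMI per library, so no change was read from them. Without thinning the share was 0.335% vs. 0.0855%, with overlapping groups (exact permutation p = 0.2).

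**Figure D1:**
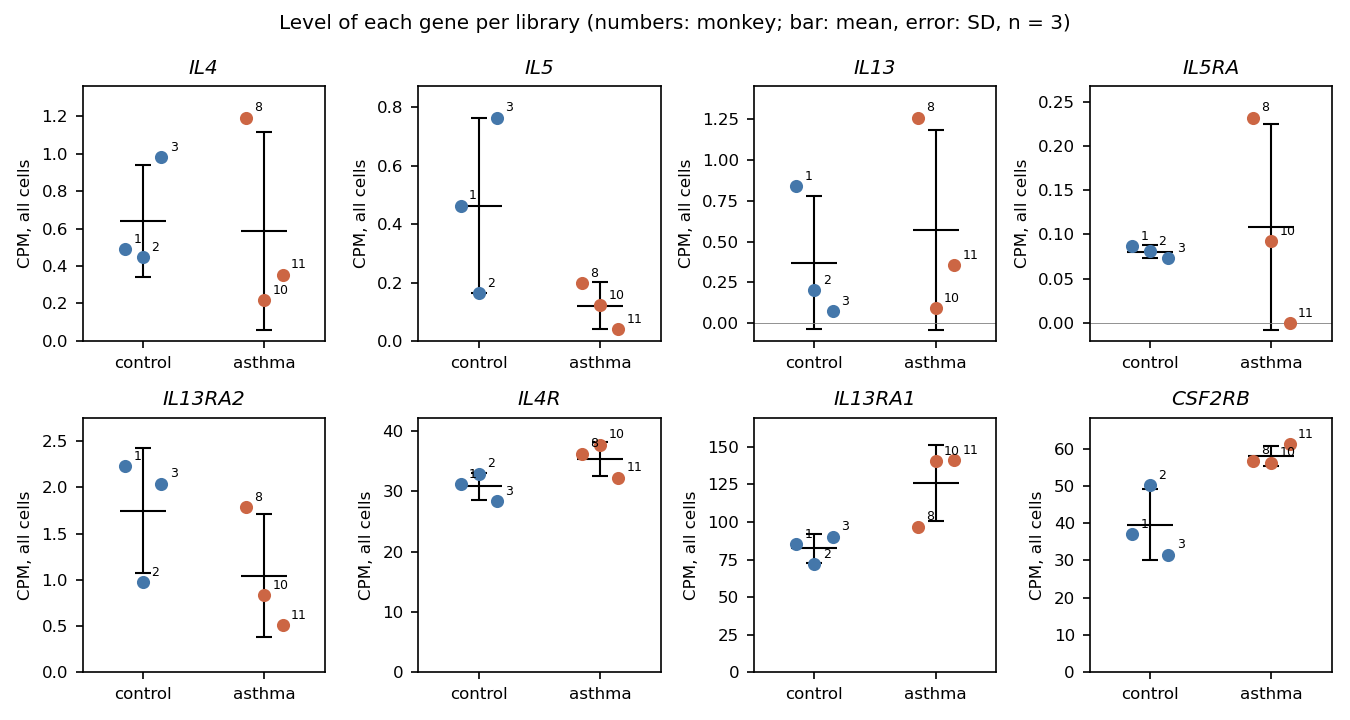
Level of 8 genes over all cells of each library (y axis, CPM; IL9 had no UMI), with points for the 3 control and the 3 asthma monkeys marked by animal number, the mean as a bar and the SD as the error (n = 3). IL13RA1 and CSF2RB had all 3 asthma values above all 3 control values, and IL4, IL13 and IL5RA had their highest value in asthma 8.

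The cells that held IL4 were of 2 main kinds. T and NK-like cells held 70 of the 107 UMIs, in 49 of 10117 cells (0.484%, 95% Wilson interval 0.367 to 0.640%). None of 2025 stromal-like cells, whose median depth was similar (3807 vs. 3657 UMIs), had an IL4 UMI, which allows a share of up to 0.148%. The other kind was a sub-cluster of 21 cells led by CLC and FCER1A, where 13 cells held 26 UMIs, or 497 CPM (95% Poisson interval 325 to 728). CLC encodes the Charcot-Leyden crystal protein of eosinophils and basophils, and FCER1A a chain of the high-affinity IgE receptor of mast cells and basophils.

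This small sub-cluster, 0.0702% ± 0.0958 of control and 0.104% ± 0.120 of asthma cells (SD, n = 3), held 24.3% of all IL4 UMIs. Its cells carried FCER1A and CPA3 in 21 of 21 cells, MS4A2 and GATA2 in 20 and CLC in 15. KIT, the stem cell factor receptor of mast cells, was found in 2, and CCR3 and EPX, both of the basophil or eosinophil list, in none. CCR3 had no UMI in the 104 mast-like or 1628 neutrophil-like cells either. The sub-cluster carried 3 markers of the basophil or eosinophil list, but mast cell markers outnumbered these among its leading genes, and it stayed unnamed. Of its 21 cells 7 came from control 3 and 10 from asthma 8, and these libraries gave 7 and 14 of the 26 IL4 UMIs. Control 2, asthma 10 and asthma 11 added 1, 1 and 2 cells, and control 1 none.

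Mast-like cells, which carried KIT in 80 of 104 cells, had no IL4 UMI, which allows a share of up to 2.88%. Their number itself was 16 in the control and 88 in the asthma group, or 0.146% ± 0.0652 vs. 0.693% ± 0.584 of cells (SD, n = 3). All 3 asthma monkeys lay above all 3 controls (exact permutation p = 0.1).

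Among T and NK-like cells, IL4 was found mostly in cells with CD8A. Within this class 42 of the 49 cells with an IL4 UMI belonged to the sub-clusters named neither CD4 T-like, Treg-like, NK-like nor proliferating-like, and 1 was CD4 T-like. The sub-clusters with the most of these cells had GZMK, CTSW and CD3G as their leading genes and held 14, 11 and 10 IL4 UMIs in 10, 10 and 8 cells, while the Treg-like sub-cluster held 10 UMIs in 1 cell. CD8A, a gene picked after its values were seen, was detected in 77.6% of cells with an IL4 UMI and in 58.0% of the others, and CD4, picked the same way, in 4.08% and 8.85%. KLRG1, an inhibitory receptor of effector lymphocytes, was detected in 46.9% of them and in 17.4% of the others. GATA3, the transcription factor that defines type 2 lymphocytes, was detected in 20.4% and 22.1%. IL1RL1 (the IL-33 receptor), IL17RB (a chain of the IL-25 receptor) and HPGDS (a prostaglandin D2 synthase) were found in none of the 49 cells. Cells within a library are not replicates, so these shares are descriptions. The IL4 level in T and NK-like cells was 2.35, 1.11 and 2.42 CPM in control 1, 2 and 3 and 3.03, 0.449 and 0.789 CPM in asthma 8, 10 and 11. Its log2 fold change was -0.44 (SE 0.64, edgeR adjusted p = 0.937), with the groups overlapping.

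IL13 came from few cells, some of which held several UMIs. Of 42 cells with an IL13 UMI, 11 held more than 1, against 1 of 51 cells for IL5. By share of cells alone, T and NK-like cells (0.188%, 95% Wilson interval 0.120 to 0.293%) could not be set apart from stromal-like cells (0.148%, 0.0504 to 0.435%). The number of UMIs per cell differed, since the 3 stromal-like cells had 1 UMI each while 7 of the 19 T and NK-like cells had more than 1, and the 19 cells together held 46 UMIs. CD4 T-like cells held 20 UMIs in 10 cells, 16 of the UMIs in control 1. The name is that of the sub-cluster, and of these 10 cells 1 had a CD4 UMI (10%, against 41.3% of the other CD4 T-like cells) and 4 had no CD3E UMI. Treg-like cells held 13 UMIs in 2 cells, both from asthma 8. One mast-like cell of asthma 8 held 11 UMIs beside 4 KIT UMIs, and none of the other mast-like cells had any. The CLC and FCER1A-led group held 2 UMIs in 2 of its 21 cells (38.2 CPM), both from asthma 8. An unnamed sub-cluster led by FABP4 held 6 UMIs in 4 cells. The 2 T and NK-like cells with the most UMIs of IL4 (10) and of IL13 (11) were both labelled Treg-like by their sub-cluster, came from asthma 8 and carried no FOXP3 UMI, the factor that defines regulatory T cells. IL13 UMIs in 6 further classes, such as 5 UMIs in 1 B-like cell of control 1, stood in single cells.

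T and NK-like cells with an IL13 UMI differed in gene content from those with an IL4 UMI. GATA3 was detected in 15 of 19 cells with IL13 (78.9%) and in 22% of the other cells of the class. IL17RB and HPGDS were each found in 4 of 19 cells (21.1%), against 0.0396% and 0.198% of the others, and IL1RL1 in 3 of 19 (15.8% vs. 0.287%). The rest of the list of type 2 lymphocyte genes went both ways. PTGDR2 and CCR4 were each found in 1 of 19 cells (5.26%, against 0.0099% and 0.614%). KLRG1 (10.5% vs. 17.5%), RORA (10.5% vs. 12.8%), IL18R1 (5.26% vs. 6.75%) and AREG (0% vs. 0.634%) were less frequent in the cells with IL13. CD8A was found in 21.1% of these cells against 58.2% of the others. Most cells with IL13 lay in sub-clusters with 10, 4 and 2 of them, where GATA3 was at 168, 168 and 261 CPM and CD8A at 60.8, 137 and 23.3 CPM. The other T and NK-like sub-clusters had GATA3 at 97.2 CPM or less and CD8A at 171 CPM or more. The cells with IL13 were also deeper than the rest, with a median of 5510 vs. 3655.5 UMIs. The part of sub-cluster and of depth in these shares was not tested. IL4 and IL13 were found together in 2 cells, 1 of them Treg-like and 1 named alveolar macrophage-like by its sub-cluster. The latter, from asthma 10 and with 24622 UMIs, also held 9 UMIs of CD3E, a marker of T and NK-like cells, so its name is uncertain. Neither cytokine was found with IL5 in any cell. The 19 cells came from 5 libraries, 9 from control 1 and 5 from asthma 8.

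**Figure D2:**
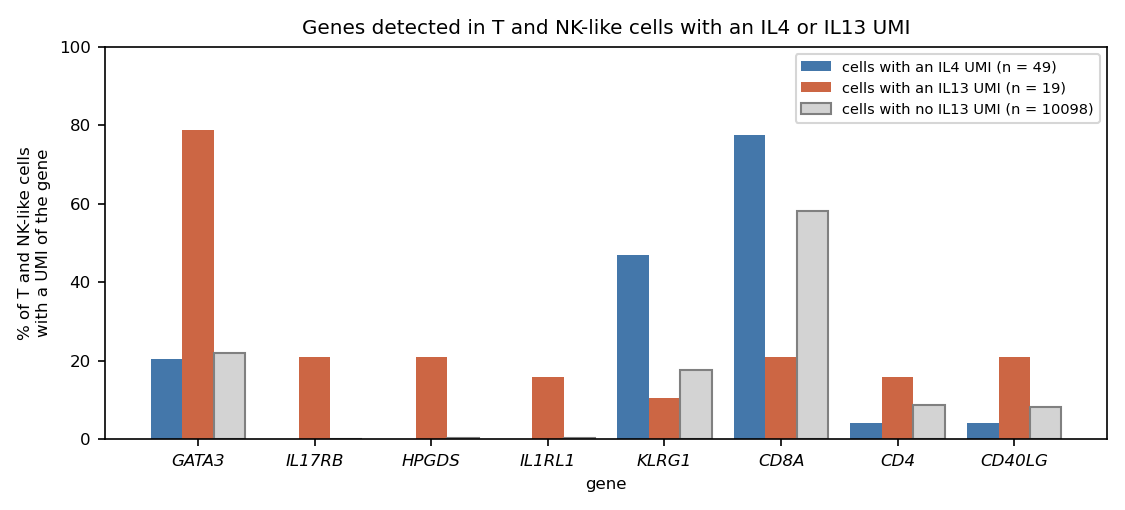
Share of T and NK-like cells with a UMI of each gene (y axis, %) for 49 cells with an IL4 UMI, 19 cells with an IL13 UMI and the 10098 cells with no IL13 UMI. GATA3 was found in 78.9% of cells with IL13 and 20.4% of cells with IL4, and CD8A in 21.1% and 77.6%.

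IL5 did not stand out in any lymphocyte class. It was found in 0.109% of T and NK-like cells and in 0.296% of stromal-like cells, which are not known to make it, and 7 of the 52 UMIs came from 616 mesothelial-like cells and 10 from 1792 alveolar macrophage-like cells. Of the 51 cells, 50 had a single UMI. The share in T and NK-like cells was thus no higher than in stromal-like cells and is read as background. T and NK-like cells held 3, 1 and 6 IL5 UMIs in control 1, 2 and 3 and 1, 0 and 0 in asthma 8, 10 and 11, out of 41 and 11 in all cells of the control and the asthma group.

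**Figure D3:**
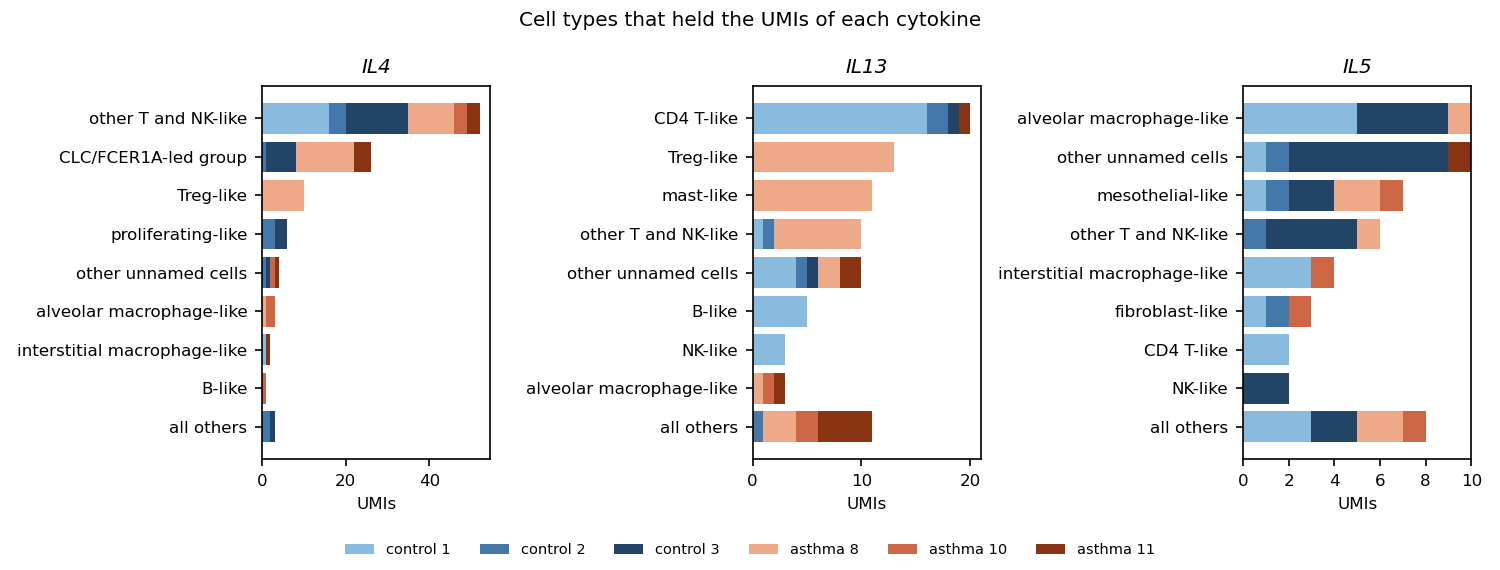
UMIs of IL4, IL13 and IL5 by cell type (x axis, UMIs over all quality-controlled cells; colours, the 6 libraries). IL4 lay mainly in other T and NK-like cells (52 UMIs) and the CLC and FCER1A-led group (26), IL13 in CD4 T-like cells (20, of which 16 in control 1) with Treg-like and mast-like UMIs from asthma 8, and IL5 in no one type.

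The receptor chains differed in the cell types where they were highest, with wide overlap. IL4R had its highest levels in lymphoid, myeloid and endothelial-like cells, IL13RA1 in epithelial, stromal and myeloid cells, and CSF2RB mainly in myeloid cells. Averaged over libraries with at least 10 cells of a type, IL4R was highest in CD4 T-like cells, at 99.4 ± 35.7 CPM (SD, n = 6). Neutrophil-like cells (67.8 ± 29.0, n = 6), mast-like cells (67.4 ± 36.4, n = 3), endothelial-like cells (55.4 ± 13.3, n = 6) and Treg-like cells (50.7 ± 31.8, n = 6) followed, and these neighbours lay within 1 SD of each other. Interstitial macrophage-like cells had 42.9 ± 2.29 CPM. Epithelial types held it too, with an IL4R UMI in 30.1% of basal-like, 16.8% of club-like and 12.9% of alveolar type 2-like cells, against 30.7% of CD4 T-like cells, at medians of 8960, 12891, 10736 and 3973 UMIs per cell. Basal-like cells had 25.3 ± 13.9 CPM (n = 5). Alveolar type 2-like cells, the surfactant-producing cells, had 18.3 ± 10.4 CPM, and mesothelial-like cells 8.03 ± 1.75 CPM.

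IL13RA1 was nearly absent from lymphocytes. Other T and NK-like cells held 2.43 ± 1.25 CPM (SD, n = 6) and B-like cells 3.03 ± 2.52. The highest levels were in pericyte-like cells (458 ± 183, n = 2), club-like cells, the secretory cells of the airway (359 ± 109, n = 4), and alveolar type 2-like cells (351 ± 67.9, n = 6). The pericyte-like values came from asthma 10 and asthma 11 only (329 and 587 CPM), while the other types named here were averaged over both groups. Smooth muscle-like (266 ± 15.4, n = 2), neutrophil-like (246 ± 36.0, n = 6) and alveolar type 1-like cells (226 ± 28.2, n = 4) came next, and interstitial macrophage-like cells had 186 ± 40.5 (n = 6). The first 3 types overlapped within their SD. Club-like and alveolar type 2-like cells had an IL13RA1 UMI in 91.6% and 82.5% of cells, at medians of 12891 and 10736 UMIs per cell.

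Both chains of the shared IL-4 and IL-13 receptor were found together in 1974 cells. The share was 36.4% of alveolar macrophage-like cells, 33.3% of interstitial macrophage-like cells, 23.1% of basal-like cells, 15% of club-like cells and 10.8% of alveolar type 2-like cells, against 0.178% of T and NK-like cells. Depth moved with these shares, since the median alveolar macrophage-like cell held 24234 UMIs and the median T and NK-like cell 3657. Endothelial-like cells, at 3253 UMIs, had both chains in 9.4% of cells.

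CSF2RB was highest in neutrophil-like cells, at 737, 951 and 561 CPM in control 1, 2 and 3 and 779, 762 and 1251 CPM in asthma 8, 10 and 11. The study itself listed CSF2RB among the markers of its granulocyte cluster, which was not done here. The CLC and FCER1A-led group was next in pooled counts, with 27 UMIs in 14 of 21 cells, or 516 CPM (95% Poisson interval 340 to 751). Plasmacytoid dendritic-like cells (136 ± 50.8, SD, n = 4), dendritic-like cells (85.3 ± 74.2, n = 6), monocyte-like cells (74.1 ± 22.1), interstitial macrophage-like cells (70.2 ± 16.3) and alveolar macrophage-like cells (59.7 ± 15.2) overlapped within their SD except that the first lay above the last. Outside these types CSF2RB was at 58.7 ± 32.9 CPM (n = 3) in mast-like cells, 49.8 ± 13.8 CPM (n = 5) in plasma-like cells and 31.0 ± 20.8 CPM (n = 6) in endothelial-like cells. Other T and NK-like cells had 1.16 ± 0.639 CPM.

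**Figure D4:**
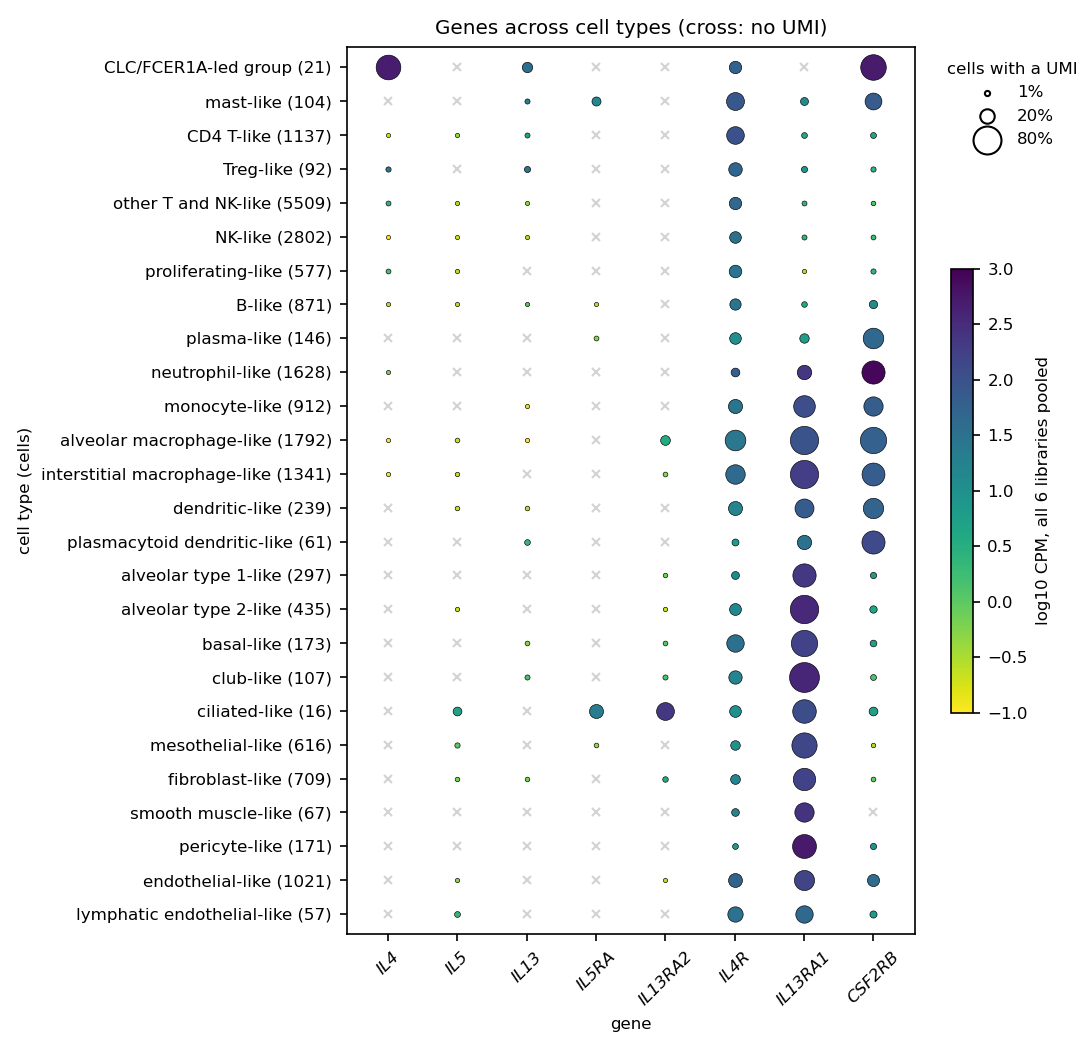
The 8 detected genes (x axis) in 26 cell types (y axis, with the number of cells), where colour is log10 CPM pooled over the 6 libraries, dot area the share of cells with a UMI and a cross no UMI. IL4 and CSF2RB share the CLC and FCER1A-led group, IL13RA1 is high in epithelial and stromal types, and IL13RA2 stands out in ciliated-like cells. IL5RA is highest in ciliated-like and mast-like cells, on few UMIs.

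The chain for IL-5 and the IL-13 decoy were scarce in most cell types. IL5RA had 17 UMIs in 15 cells, of which 7 of 104 mast-like cells held 8 UMIs (14.1 CPM, 95% Poisson interval 6.08 to 27.8) and 3 of 16 ciliated-like cells held 4. The CLC and FCER1A-led group and all 10117 T and NK-like cells had none, which allows shares of up to 14.3% and 0.0297%. By library the IL5RA level was 0.0869, 0.0813 and 0.0728 CPM in the control group and 0.232, 0.0927 and 0 CPM in the asthma group (exact permutation p = 0.7). IL5RA and CSF2RB, which together form the IL-5 receptor, were found in the same cell 3 times.

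IL13RA2 was read at a low level in alveolar macrophage-like and fibroblast-like cells and at a high one in ciliated-like cells. Alveolar macrophage-like cells held 158 of the 251 UMIs, with 1 or more in 146 of 1792 cells and a level of 3.71 CPM (95% Poisson interval 3.15 to 4.33). Their libraries gave 4.28, 2.96 and 2.39 CPM in control 1, 2 and 3 and 4.50, 3.55 and 2.71 CPM in asthma 8, 10 and 11, overlapping throughout (log2 fold change 0.06, SE 0.34, edgeR adjusted p = 0.999). The 16 ciliated-like cells held 43 UMIs in 5 cells, or 227 CPM (164 to 306), all in control 1 and control 3. Control 3 gave 37 of these UMIs in 3 cells, 16 of them in 1 cell, and control 1 gave 6, so the level rests mainly on control 3. Fibroblast-like cells held 15 UMIs in 10 of 709 cells, or 3.58 CPM (2.0 to 5.91), a level close to that of alveolar macrophage-like cells. T and NK-like cells had none.

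Quality control removed more barcodes with ciliated genes than it kept cells named ciliated-like. All deposited barcodes were therefore sorted by how many of 6 ciliated markers they carried, a step chosen after the data were seen. The 41 barcodes with 5 or 6 markers, 23 of which had failed quality control, held 252 of all 562 IL13RA2 UMIs (44.8%) at 266 CPM (95% Poisson interval 234 to 301), and 12 of all 30 IL5RA UMIs. Barcodes with 3 or more alveolar macrophage markers held 234 UMIs (41.6%) at 3.31 CPM, and 31926 barcodes with neither set held 29 UMIs, or 0.207 CPM. Among barcodes with 3 or more ciliated markers the IL13RA2 UMIs were 19, 110 and 110 in control 1, 2 and 3 and 0, 60 and 0 in asthma 8, 10 and 11. These came from 116, 14 and 31 barcodes and from 21, 56 and 6 barcodes, and the groups overlapped. Asthma 8 had 21 such barcodes and no UMI, while control 2 had 14 and 110 UMIs. With 5 or 6 markers the barcodes numbered 9, 3 and 13 in control 1, 2 and 3 and 3, 13 and 0 in asthma 8, 10 and 11. They held 6, 102 and 105 UMIs in the controls and 0 and 39 in asthma 8 and 10. At this cut asthma 10 was at 222 CPM and control 3 at 221 CPM. Over all kept cells IL13RA2 stood at 2.23, 0.976 and 2.04 CPM in the control and 1.79, 0.835 and 0.512 CPM in the asthma group (log2 fold change -0.89, SE 0.54, edgeR adjusted p = 0.541).

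Between the groups, IL13RA1 and CSF2RB were the 2 genes whose level over all cells was higher in all asthma monkeys than in all controls, and neither passed the test over all genes. IL13RA1 was at 85.4, 71.8 and 90.2 CPM in control 1, 2 and 3 and at 96.9, 141 and 141 CPM in asthma 8, 10 and 11. The group means were 82.5 ± 9.52 vs. 126 ± 25.3 CPM (SD, n = 3), with a log2 fold change of 0.47 (SE 0.19, edgeR adjusted p = 0.371). CSF2RB was at 37.1, 50.2 and 31.5 CPM in the control group and at 56.8, 56.2 and 61.1 CPM in the asthma group. The means were 39.6 ± 9.59 vs. 58.0 ± 2.68 CPM, with a log2 fold change of 0.39 (SE 0.20, edgeR adjusted p = 0.476). By share of cells with a UMI, thinned to 1000 UMIs, the groups overlapped for both genes (exact permutation p = 0.2 for IL13RA1 and 0.4 for CSF2RB). Thinned to 2000 UMIs, they overlapped for IL13RA1 (exact permutation p = 0.2) but not for CSF2RB (exact permutation p = 0.1). IL4R overlapped, at 31.1, 32.9 and 28.4 vs. 36.2, 37.7 and 32.3 CPM (log2 fold change 0.05, SE 0.14, edgeR adjusted p = 0.913).

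Of the 9 genes 6 passed the filter on low counts and 0 were called by edgeR, against 12 of 14306 genes tested (0.0839%). At an unadjusted p under 0.05 the count was 1 of 6, against 12.9% of all genes, and DESeq2 called 0 of 6, against 4.81% of all genes. Groups did not overlap for 2 of the 6 genes, and for 19% of all genes tested. Scaling by total UMIs in place of TMM factors moved the median of all genes by 0.14 on the log2 scale. The fold changes moved with it, to 0.61 for IL13RA1 and 0.55 for CSF2RB. Under this scaling 0 of the 6 genes were called, while the calls among all genes tested were 30, against 12 with TMM factors.

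The cell makeup of the libraries was set beside these levels. Where each cell type was given its own level over all 6 libraries, IL13RA1 came to 91.2 ± 7.51 CPM in the control and 117 ± 17.6 CPM in the asthma group, a difference of 26.0 CPM beside the 43.7 CPM measured. CSF2RB came to 47.0 ± 7.14 vs. 50.1 ± 5.94 CPM, a difference of 3.17 CPM beside 18.4 CPM. For both genes the groups then overlapped. The level of a type was pooled over both groups, so these values also hold changes within types, and the part of the makeup in the result was not tested. Pericyte-like cells, which had the highest IL13RA1 level (from asthma 10 and asthma 11 only), numbered 4 in the control and 167 in the asthma group, 128 of them in asthma 11.

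Within cell types, CSF2RB in endothelial-like cells was the only call. Among 32 pairs of a gene and a class that could be tested in 15 classes, 1 was called, against 0.502% of all such pairs, and in 6 of 32 the groups did not overlap, against 15.4% of all pairs. CSF2RB in endothelial-like cells was at 17.2, 6.37 and 14.4 CPM in control 1, 2 and 3 and at 53.7, 52.5 and 41.7 CPM in asthma 8, 10 and 11. The log2 fold change was 1.58 (SE 0.34, edgeR adjusted p = 0.0333), in a class where 4.9% of all genes tested were called. The counts behind it were small, at 5, 1 and 10 UMIs in the 3 controls and 59, 51 and 42 in the asthma monkeys.

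The call was lost without any 1 of the 6 libraries, with adjusted p from 0.0530 without control 2 to 0.127 without control 3 and log2 fold changes from 1.40 to 1.70. The class was also built from different clusters in the groups. Cluster 17 held 79.4% of control but 19.9% of asthma endothelial-like cells, while clusters 14 and 16 held 4.12% and 16.5% of control and 41.2% and 38.9% of asthma cells. In cluster 17 alone CSF2RB was at 19.7, 8.0 and 14.7 CPM in the control and 34.7, 45.4 and 65.0 CPM in the asthma group (14.1 ± 5.86 vs. 48.4 ± 15.4, SD, n = 3, exact permutation p = 0.1), and the gene did not pass the filter on low counts there. The 8 macrophage markers summed to 120 and 454 CPM in endothelial-like cells of the control and the asthma group, most abundant APOE and none at 0 (exact permutation p = 0.1). The 6 neutrophil markers, 1 of them at 0, summed to 37.8 and 75.9 CPM, most abundant S100A9. Their part in the result was not tested.

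Dendritic-like cells had the largest fold changes for both CSF2RB and IL13RA1, but these were not called by edgeR. CSF2RB was at 37.2, 45.7 and 34.0 CPM in control 1, 2 and 3 and at 89.7, 230 and 75.7 CPM in asthma 8, 10 and 11 (log2 fold change 1.72, SE 0.42, edgeR adjusted p = 0.229). IL13RA1 was at 58.4, 78.6 and 39.2 vs. 111, 306 and 151 CPM (log2 fold change 1.69, SE 0.43, edgeR adjusted p = 0.275). The groups did not overlap for either gene, as was the case for 503 of 3942 genes tested in this class. DESeq2 called both genes, at an adjusted p of 0.0361 for each, against 0.718% of genes in this class. Asthma 10 was highest for both, and without it the log2 fold changes were 1.10 for CSF2RB and 1.15 for IL13RA1. The 8 macrophage markers, most abundant APOE and none at 0, summed to 425, 208 and 301 CPM in dendritic-like cells of control 1, 2 and 3 and to 732, 2029 and 240 CPM in those of asthma 8, 10 and 11 (exact permutation p = 0.3). Their part in the result was not tested.

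The asthma monkeys had 28, 11 and 11 of these cells, and the sub-clusters differed between groups. A sub-cluster led by CLEC9A, the marker of cross-presenting dendritic cells, held 91.5% of control and 60% of asthma dendritic-like cells, and one led by CCL22 held 8.47% and 40%. Within the first, pooled over monkeys, CSF2RB was at 26.6 vs. 49.2 CPM and IL13RA1 at 22.5 vs. 29.1 CPM. Within the second CSF2RB was at 167 vs. 261 CPM and IL13RA1 at 391 vs. 444 CPM. The 2 sub-clusters thus differed in IL13RA1 more than the groups did within either.

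In the other classes no gene was called. CSF2RB had a log2 fold change above 0 in 9 of 9 classes tested, with a median of 0.32, although in plasma-like cells the sign turned, to -0.11, when libraries were scaled by total UMIs. Outside endothelial-like and dendritic-like cells it ran from 0.12 in plasma-like to 0.40 in interstitial macrophage-like cells, where the asthma monkeys (96.7, 69.3 and 78.2 CPM) lay above the controls (48.4, 61.9 and 66.4 CPM; SE 0.18, edgeR adjusted p = 0.958). IL13RA1 was above 0 in 9 of 12 classes with a median of 0.17, and IL4R in 4 of 9 with a median of -0.02. With scaling by total UMIs the sign of IL4R turned in alveolar macrophage-like cells (from -0.03 to 0.06), interstitial macrophage-like cells (from -0.02 to 0.04) and endothelial-like cells (from -0.12 to 0.12). The lowest value was IL4R in alveolar type 2-like cells, at 14.4, 35.6 and 26.2 CPM in the control and 14, 9.25 and 10.5 CPM in the asthma group (log2 fold change -0.97, SE 0.43, edgeR adjusted p = 0.870), where control 1 lay just above asthma 8. In CD4 T-like cells IL4R was at 96.8, 57.4 and 81.2 vs. 160, 83.5 and 117 CPM, overlapping. The classes come from the same monkeys, so they are not independent of each other.

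**Figure D5:**
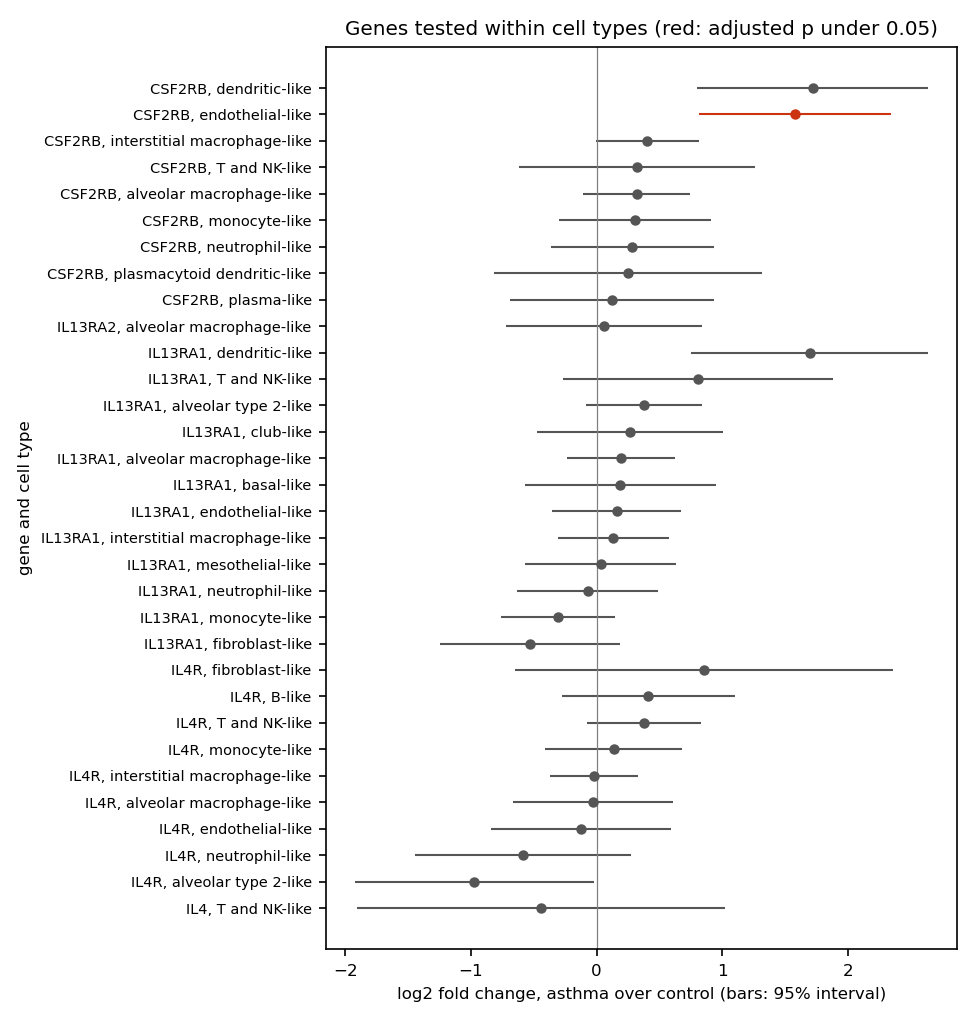
Log2 fold change of asthma over control from edgeR (x axis; points, estimate; bars, 95% interval) for 32 pairs of a gene and a cell type (y axis). The only pair with an adjusted p under 0.05, drawn in red, is CSF2RB in endothelial-like cells at 1.58, and CSF2RB and IL13RA1 in dendritic-like cells lie at 1.72 and 1.69.

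The rest of the pathway was read from 2 lists. Of 22 cytokine, receptor and signalling genes 18 had a symbol in the files and 17 were tested over all cells, and edgeR called none, with 1 at an unadjusted p under 0.05 (12.9% of all genes tested) and a median log2 fold change of -0.03. The most read were JAK1, a kinase bound to IL4R, PTPN6, a phosphatase that damps cytokine signals, and STAT3, a transcription factor. JAK1 was at 214 ± 20.1 vs. 232 ± 24.7 CPM and PTPN6 at 162 ± 18.5 vs. 163 ± 20.6 CPM (SD, n = 3), with overlapping groups in both. STAT3 was at 80.3, 74.3 and 90.9 CPM in the control and 113, 119 and 119 CPM in the asthma group (log2 fold change 0.37, SE 0.11, edgeR adjusted p = 0.260, DESeq2 adjusted p = 0.0354). IL3 had no UMI, and CSF2, which encodes GM-CSF, had 359 UMIs, at 1.75 ± 2.40 vs. 2.14 ± 0.681 CPM (SD, n = 3).

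Of 24 genes known to respond to IL-4 or IL-13, 22 had a symbol and 19 were tested over all cells. edgeR called none of them, with 6 of 19 at an unadjusted p under 0.05 (12.9% of all genes tested), while DESeq2 called CCL11, CCL22, POSTN and MAOA, against 4.81% of all genes. The log2 fold change was above 0 for 14 of 19, with a median of 0.76, beside a median of -0.02 over all genes tested. POSTN, which encodes the matrix protein periostin, was at 0.927, 1.02 and 2.11 CPM in the control and 5.04, 11.1 and 34.2 CPM in the asthma group (log2 fold change 3.50, SE 0.75, edgeR adjusted p = 0.177). CCL11, the eosinophil chemoattractant eotaxin, was at 1.42, 1.99 and 2.99 vs. 6.16, 9.34 and 28.6 CPM (log2 fold change 2.65, SE 0.61, edgeR adjusted p = 0.204). In both genes the groups did not overlap, as for 19% of all genes tested, and asthma 11 was highest. POSTN was among the 10 leading genes of every pericyte-like sub-cluster, and the pericyte-like cells, 4 in the control and 167 in the asthma group, were also most numerous in asthma 11, with 128. CCL11 led a sub-cluster of fibroblast-like cells. These too were most numerous in asthma 11, with 261, against 44 to 165 in the other libraries. The part of either cell type in the result was not tested. CCL22, a chemoattractant for type 2 T cells, was at 7.41, 5.94 and 5.65 vs. 18.1, 10.7 and 12.3 CPM, and MAOA, a monoamine oxidase, at 32.1, 16.7 and 26.8 vs. 45.3, 49.0 and 66.2 CPM. MRC1, the macrophage mannose receptor and the most read gene of the list, was at 651 ± 256 vs. 510 ± 111 CPM (SD, n = 3, log2 fold change -0.52, SE 0.33, edgeR adjusted p = 0.568). The next most read were TGM2, at 101 ± 38.3 vs. 90.0 ± 22.6 CPM, and CCL17, another CCR4 ligand, at 40.6 ± 48.4 vs. 113 ± 46.3 CPM, with overlapping groups in both.

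Within classes 1 of 112 signalling pairs and 3 of 43 response pairs were called by edgeR, against 0.502% of all pairs of a gene and a class. In endothelial-like cells JAK1 rose from 129 ± 4.86 to 321 ± 25 CPM (SD, n = 3, log2 fold change 1.08, SE 0.19, adjusted p = 0.0208) and TGM2, which encodes a crosslinking transglutaminase, fell from 1010 ± 33.6 to 472 ± 125 CPM (log2 fold change -1.32, SE 0.23, adjusted p = 0.0225). Within cluster 17 alone, of 3751 genes tested none was called, and JAK1 stood at 109 ± 14.2 vs. 178 ± 30.7 CPM (exact permutation p = 0.1) and TGM2 at 1103 ± 104 vs. 924 ± 311 CPM (exact permutation p = 0.4). Both calls were lost without control 1, control 3, asthma 10 or asthma 11, with adjusted p from 0.0568 to 0.103. The log2 fold changes in these runs stayed about as large, from 1.04 to 1.11 for JAK1 and from -1.36 to -1.12 for TGM2.

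In fibroblast-like cells, where 0.622% of all genes tested were called, TGM2 and CCL11 rose. TGM2 was at 46.4, 33.0 and 40.2 CPM in control 1, 2 and 3 and 161, 331 and 202 CPM in asthma 8, 10 and 11 (log2 fold change 2.37, SE 0.30, edgeR adjusted p = 0.00873). Without control 3 the call was lost (log2 fold change 2.37, edgeR adjusted p = 0.0897). CCL11 was at 128, 64.2 and 74.0 vs. 185, 732 and 500 CPM (log2 fold change 2.29, SE 0.43, edgeR adjusted p = 0.0380). Its call was lost without any 1 control library or asthma 10, with adjusted p from 0.0870 to 0.243 and log2 fold changes from 1.80 to 2.53. It was also lost with a mitochondrial maximum of 10% (log2 fold change 2.41, edgeR adjusted p = 0.0528). With the pathway genes kept in clustering the call was lost too (log2 fold change 2.33, edgeR adjusted p = 0.0565). The fibroblast-like sub-clusters again differed between groups, and the 1 led by CCL11 held 2.08% of control and 17.1% of asthma cells. Pooled over monkeys, TGM2 was at 218 vs. 428 CPM and CCL11 at 735 vs. 1378 CPM within it. The control values rest on 6 cells, with 8 TGM2 and 27 CCL11 UMIs. In the sub-cluster with 23.6% of control and 58.2% of asthma cells TGM2 was at 132 vs. 120 CPM and CCL11 at 252 vs. 357 CPM. A further sub-cluster of 49 cells, all from the asthma group, had TGM2 at 1434 CPM. The sub-clusters that held 49.3% and 25% of control but 9.03% and 1.19% of asthma cells were low in TGM2, at 5.09 vs. 17.6 CPM and 5.64 vs. 0 CPM, and the first had CCL11 at 12.7 vs. 35.3 CPM. These values rest on 4 vs. 5 and 3 vs. 0 TGM2 UMIs and on 10 vs. 10 CCL11 UMIs. The 8 macrophage markers summed to 2095 and 6815 CPM, most abundant APOE, in control and asthma fibroblast-like cells (exact permutation p = 0.1), and their part in the result was not tested.

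DESeq2 called 3 more response or signalling genes within classes. CISH, a cytokine-induced inhibitor of STAT5 signalling, was at 42.4, 39.6 and 40.4 CPM in T and NK-like cells of control 1, 2 and 3 and at 84.3, 79.1 and 68.3 CPM in those of asthma 8, 10 and 11 (edgeR adjusted p = 0.176, DESeq2 adjusted p = 0.000135, against 0.844% of genes called in this class). DPP4, a cell surface peptidase, was at 15.3, 23.7 and 16.4 vs. 33.0, 41.6 and 71.2 CPM in the same cells (edgeR adjusted p = 0.330, DESeq2 adjusted p = 0.00554). CCL22 was at 292, 150 and 49.7 vs. 770, 1595 and 1641 CPM in dendritic-like cells (edgeR adjusted p = 0.109, DESeq2 adjusted p = 3.67e-06). Nearly all of it lay in the sub-cluster led by CCL22, which held 8.47% of control and 40% of asthma dendritic-like cells and stood at 1391 vs. 3577 CPM, while the CLEC9A-led sub-cluster stood at 2.25 vs. 1.82 CPM. All 3 had separate groups, as had 1130 of 10428 genes tested in T and NK-like cells and 503 of 3942 in dendritic-like cells. The 3 genes are named because DESeq2 called them. The T and NK-like class was also made of different types in the groups, with 484 proliferating-like and 1811 NK-like cells in the control and 93 and 991 in the asthma group, and the part of this in CISH and DPP4 was not tested.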

How the data were processed

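Lung cells of 6 monkeys, 1 library each, were captured with 10x Genomics 3′ chemistry. The authors deposited UMI counts per gene and barcode, made with Cell Ranger (version 2.1.1 in the submitters' processing notes, 4.0.0 per the file headers) on a cynomolgus genome. Each transcript is read at its 3′ end, so levels were not compared between genes. Kept cells had a mitochondrial share of up to 25%, a gene number above 500 and below 5000, and 500 UMIs or more. Counts were scaled to 10000 per cell and clustered with scanpy 1.11.5 (2000 variable genes, 10 principal components, 20 neighbours, Leiden resolution 0.8, then 0.5 within clusters). The 9 genes and the pathway lists were left out of clustering. A sub-cluster took a name with 3 or more markers of a list at a log2 fold of 1 or more and in 10% of its cells. It stayed unnamed with fewer, where markers of another class outnumbered its own among the 10 leading genes, where another lineage's markers were also high or led it against the rest of its class, or where UMIs were low and no marker led.

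Counts were summed per library and class (10 or more cells, 2 or more libraries per group) and tested with edgeR 4.0.16 (quasi-likelihood test, TMM, filterByExpr), with Benjamini-Hochberg adjustment over all genes tested. A call needed an adjusted p under 0.05 and a log2 fold change over 0.25. DESeq2 1.42.0, no filter, 10% mitochondrial UMIs, left-out doublet candidates (1141 cells, otherwise kept), resolution 1.6 and each library left out were alternatives, and scaling by total UMIs was added after seeing the data. On simulated counts with 200 changed genes, edgeR recovered 25% of 2-fold and 64% of 4-fold changes over all cells (14306 genes), and 38% and 87% in T and NK-like cells. Of the calls in these simulations, 9.18% over all cells and 10.1% in T and NK-like cells fell on unchanged genes. Genes with too few UMIs were compared by the two-sided exact permutation test over 20 assignments.

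The genes, pathway lists and tests were chosen with earlier results of these data known. All 9 genes are described over all cells, and within classes those that could be tested. Pathway genes are named where called, and otherwise the 3 with the most UMIs of each list. Cells with a cytokine UMI are described by a list of type 2 lymphocyte genes. No sequences are printed. A result on 1 gene with a pattern like that of IL13 is not reported here.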

Additional observations from a re-analysis of the deposited data

Results flagged for a closer look

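Several of the genes stood higher in barcodes left out by quality control than in the cells kept. IL13RA2 was at 8.08 CPM (100 UMIs) in barcodes with over 25% mitochondrial UMIs and at 7.25 CPM (211 UMIs) in those with 5000 or more genes, against 1.44 CPM in kept cells. In the barcodes with 5000 or more genes it was at 17.6 and 25.6 CPM (90 and 64 UMIs) in control 2 and 3 and at 2.14 to 3.1 CPM in the other 4 libraries. IL5RA was at 0.808 CPM (10 UMIs) in barcodes with over 25% mitochondrial UMIs, against 0.0974 CPM. In barcodes with 5000 or more genes IL5 was at 0.618 CPM (18 UMIs) against 0.298 CPM, and IL13RA1 at 122 CPM against 105 CPM. In barcodes with 500 or fewer genes IL13RA1 was at 208 CPM, IL4R at 55.3 CPM (33.2 CPM in kept cells) and CSF2RB at 637 CPM (48.5 CPM in kept cells). By library CSF2RB in these small barcodes was at 549, 725 and 494 CPM in control 1, 2 and 3 and 604, 729 and 647 CPM in asthma 8, 10 and 11, and the groups overlapped. The 6 neutrophil markers summed there to between 11596 CPM in control 1 and 26730 CPM in control 3.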

How the results depend on the processing

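Over all cells 0 of the 9 genes were called under every alternative run, while DESeq2 called 5 genes of the pathway lists where edgeR called 0. Within classes the count of 1 call became 3 with DESeq2 and 3 with no filter on low counts, both adding CSF2RB and IL13RA1 in dendritic-like cells, and 0 with each library left out in turn (lowest 0, highest 0). The run with no filter tested 77 pairs in place of 32. DESeq2 called 0.718% of all genes tested in dendritic-like cells, where edgeR called 0 of 3942. The share of all pairs called is not given for either run, so these counts have no background beside them. Scaling by total UMIs left the counts at 0, 0 and 1. The calls among all genes rose under it from 12 to 30 over all cells and from 381 to 482 in endothelial-like cells. The direction of IL4, IL13 and IL5RA turned with single monkeys left out, while IL5 stayed lower in the asthma group under every alternative run for its level and share. The IL4 difference in level, asthma minus control, turned to 0.0122 CPM with a mitochondrial maximum of 10%, and with 1 library left out ranged from -0.356 to 0.133 CPM. The IL4 share of cells ranged from -0.0661 to 0.0135 percentage points. The IL13 level ranged from -0.148 to 0.435 CPM, the lowest being that without asthma 8, and the IL13 share from -0.0330 to 0.0260 percentage points, or 0.0241 with no thinning. The IL4R share turned to -0.271 percentage points with no thinning. The IL5RA level ranged from -0.0340 to 0.0820 CPM and its share from -0.00339 to 0.0124 percentage points, the lowest being those without asthma 8. The cause of these turns was not tested beyond the library left out. In all, 58 of 64 alternatives for levels and 56 of 64 for shares kept their direction. IL4, IL5, IL13 and IL5RA had 17 to 107 UMIs each, which limits the precision of these differences. No paired analysis was possible because the groups share no replicate numbers.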

Other observations

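By Pearson correlation of log2(CPM + 1) over 25 cell types, which share libraries and depth, the genes with the pattern most like each receptor chain were LTBR (r = 0.90), CUEDC1 (0.90) and MYOF (0.89) for IL13RA1, NCF1 (0.90), RGS18 (0.89) and C1orf162 (0.88) for CSF2RB, MFNG, ORAI1 and APOBEC3H (0.79 each) for IL4R, and FMO1 (0.87), TRHDE (0.86) and CRABP2 (0.84) for IL13RA2. NCF1 encodes a subunit of the phagocyte oxidase, and LTBR the lymphotoxin beta receptor.

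For the scarce cytokines the most similar patterns were MS4A3 (r = 0.82), IL13 (0.82) and a Y RNA (0.80) for IL4, and for IL13 they included IL4 (0.82) and HBS1L (0.80). Treg-like cells stood at 28.5 ± 69.7 CPM for IL4 and 37.0 ± 90.6 CPM for IL13 (SD, n = 6). These levels rest on 10 UMIs in 1 cell and 13 UMIs in 2 cells, all from asthma 8. The part of these few cells in the likeness of IL4 and IL13 was not tested. MS4A3 is known from developing granulocytes and basophils. For IL5 they were RAB36 (0.91), SUGCT (0.91) and SMTNL2 (0.90). MS4A3 and SUGCT had 35 UMIs each.

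Markers of mast cells, 7 genes with CPA3 the most abundant, summed to 27.7, 51.3 and 53.8 CPM over all cells of control 1, 2 and 3 and to 259, 138 and 66.6 CPM in asthma 8, 10 and 11. The 5 markers of basophils or eosinophils, GATA2 the most abundant and also a mast cell gene, summed to 3.45, 11.8 and 20.2 vs. 69.0, 22.4 and 32.4 CPM. GATA2 gave 2863 of the 4592 UMIs of this list. Of these GATA2 UMIs 561 lay in mast-like cells and 125 in the CLC and FCER1A-led group, so most came from other cells. In both lists all 3 asthma monkeys lay above all 3 controls. The 7 markers of type 2 lymphocytes, KLRG1 the most abundant, summed to 40.5, 61.2 and 70.6 vs. 43.0, 47.7 and 31.1 CPM, and the groups overlapped.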
